A study of Mus musculus with 28 samples.

Results

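Cells lacking Stra8 were compared with wild-type cells 18 h after retinoic acid. The comparison rests on 4 of the 28 libraries of the series, 2 from knockout (KO) and 2 from wild-type (WT) mice, chosen by their labels alone. Each library is polyA RNA from testis germ cells sorted for the fluorescent reporter PIWIL2-eGFP, in mice of a mixed C57BL/6 and 129s4/SvJae origin. Both genotypes received WIN 18,446 for 7 days and were then given retinoic acid, so the controls share the inhibitor, the retinoic acid and the reporter. Cells of the 0 h groups were collected after the inhibitor, without retinoic acid. The age of the mice, the dose of retinoic acid, the part of Stra8 that the knockout lacks and whether animals were pooled are not given in the sources used here.

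WIN 18,446 blocks the enzymes that make retinoic acid and holds spermatogonia in an undifferentiated state. A later dose of retinoic acid lets them enter differentiation together. Stra8 is a retinoic acid target gene whose product enters the nucleus, binds DNA and is best known for its need at meiotic entry. Undifferentiated spermatogonia respond to retinoic acid by turning on Kit, and lose the genes of the stem and progenitor state as they differentiate.

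Depth at 18 h was 10058891 and 8150619 counts in the WT libraries of the first and second count table, and 5967615 and 4561373 in the KO libraries. Mitochondrial genes took 2.48% and 5.78% of counts in WT and 8.56% and 6.50% in KO. This share was higher in both KO libraries, but also differed between the WT libraries. At 0 h it was 1.98% and 6.26% in WT and 4.87% and 4.83% in KO. The part of this share in the results was not tested. Log CPM correlated across genes at 0.9764 between the WT libraries, 0.979 between the KO libraries and 0.9525 to 0.9675 across genotypes. Levels below are CPM, counts scaled to a common library total with a correction for composition, differences are log2 fold changes of KO over WT with their standard error (SE), and genes passed at an adjusted p under 0.05 in edgeR's quasi-likelihood test over 17519 genes. Germ cell markers were present in all 4 libraries: Ddx4, an RNA helicase of germ cells, stood at 527 and 520 CPM in WT and 501 and 495 CPM in KO. Sorted germ cells also held low levels of somatic genes, given further down. In such bulk samples a smaller share of cells expressing a gene and less RNA per cell cannot be told apart.

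Stra8 (ENSMUSG00000029848.11, chromosome 6, 34920163 to 34939344, GRCm38) stood at 737 and 815 CPM in WT and at 16.9 and 22.0 CPM in KO. Both KO libraries were far below both WT libraries. The difference was -5.32 ± 0.89 (adjusted p = 0.00284). Without the KO library of either table Stra8 missed the threshold, with an adjusted p of up to 0.0697. In WT its level had risen from 7.52 and 15.8 CPM at 0 h, and in KO, from 0.944 and 1.66 CPM at 0 h, residual counts also rose (4.0 ± 1.11, adjusted p = 0.0374).

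**Figure D1:**
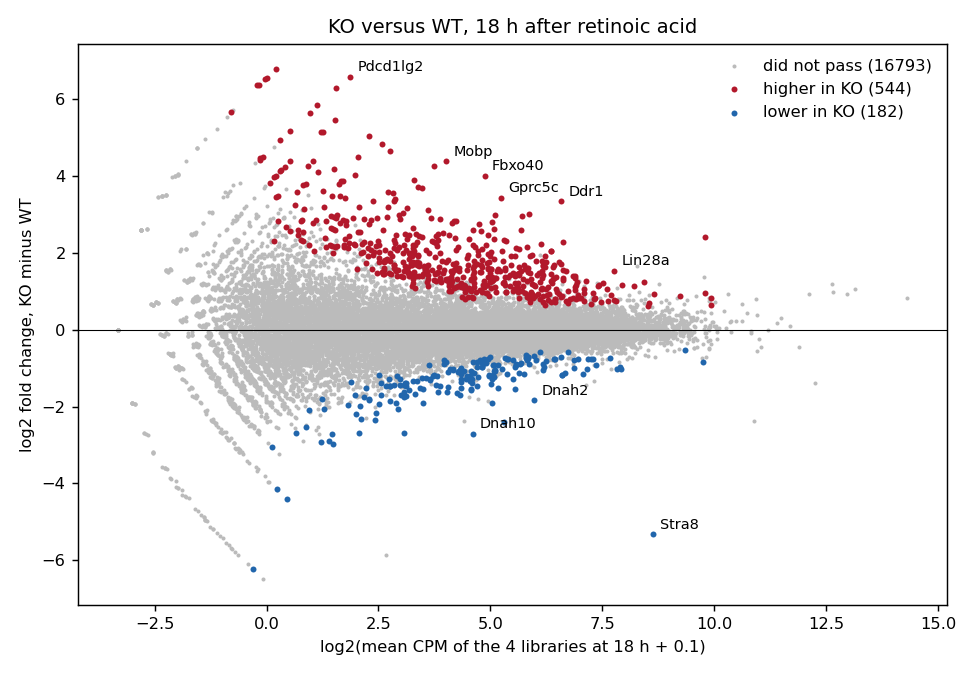
Each point is a tested gene at 18 h, with its log2 fold change (KO minus WT, vertical axis) against log2 of the mean CPM of the 4 libraries plus 0.1 (horizontal axis); red and blue mark the 544 higher and 182 lower genes. Stra8 sits apart at the lower right at -5.32, and the red points reach further from 0 than the other blue points over most of the range.

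In KO cells 726 genes passed (4.14% of the genes tested), and 74.9% of them were higher than in WT. The 544 higher genes made up 3.11% and had a median difference of 1.66, with 475 past a log2 difference of 1 and 200 past 2. The 182 lower genes made up 1.04% and had a median of -1.21, with 125 and 22 past the same marks. In all 726 genes the libraries of one genotype lay wholly on one side of the other, a separation that 23% of the tested genes showed upward and 26.7% downward. The count rested on having both libraries on each side: it was 277 without the KO library of the first table, 302 without that of the second, 176 without the WT library of the first and 356 without that of the second. The lower side shrank most: in these fits 15 to 114 lower genes passed, fewest without the WT library of the first table, against 161 to 256 higher genes. Higher genes made up 68.0% to 92.4% of the calls in them.

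The higher genes included transcription factors, matrix and signalling genes. Those with the smallest p were singled out after their values were seen. First among them was Mycn (chromosome 12, 12936093 to 12941914), a Myc family transcription factor. It stood at 25.1 and 23.6 CPM in WT and 114 and 116 CPM in KO (2.24 ± 0.20, adjusted p = 8.62e-07). The 2 libraries of each genotype lay close together. Lamb1, a laminin chain of the basement membrane, stood at 257 and 305 CPM in WT and 1365 and 1614 CPM in KO (2.41 ± 0.25, adjusted p = 6.28e-06). Nab2, a corepressor of Egr transcription factors, stood at 32.8 and 34.4 CPM in WT and 166 and 163 CPM in KO (2.29 ± 0.22), although 42.2% of its exon length is shared with another gene, which the counts may not separate. Ddr1, a collagen receptor kinase, stood at 14.2 and 20.2 CPM in WT and 170 and 179 CPM in KO (3.34 ± 0.34). Each KO library was thus well above each WT library for these genes. Smad3, a mediator of TGF-beta signals, was higher by 1.79 ± 0.20, Rragd, a Rag GTPase of nutrient sensing, by 1.79 ± 0.20, and the tetraspan membrane gene Lhfpl2 by 2.57 ± 0.29. These 7 genes passed with each 18 h library left out in turn.

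Among the 20 higher genes with the largest differences, Mobp (chromosome 9, 120149707 to 120181484), a gene known from myelin, stood at 1.47 and 1.44 CPM in WT and 36.2 and 25.1 CPM in KO (4.38 ± 0.47, adjusted p = 6.34e-06). Fbxo40 (chromosome 16, 36963460 to 36990467), a substrate receptor of a ubiquitin ligase known from muscle, stood at 2.94 and 3.95 CPM in WT and 61.8 and 48.4 CPM in KO (4.0 ± 0.36, adjusted p = 8.62e-07). The orphan receptor Gprc5c stood at 5.59 and 7.18 CPM in WT and 56.4 and 81.1 CPM in KO (3.43 ± 0.47, adjusted p = 0.000158). No library of one genotype reached the range of the other in any of the 3. Dmkn, a secreted protein gene of epidermis, was higher by 4.84 ± 0.54, the peptidase-like gene Cpxm2 by 5.02 ± 0.62, Igfbp6, which binds insulin-like growth factors, by 3.69 ± 0.46, Cass4, a scaffold of focal adhesions, by 3.55 ± 0.46, and Scd4, a stearoyl-CoA desaturase, by 3.90 ± 0.59. Cd7, an immunoglobulin-family surface protein gene, was higher by 4.50 ± 0.56, Krt75, a keratin, by 4.02 ± 0.75, and Stra6, the retinol uptake receptor, by 3.71 ± 0.60.

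A few of the strongest genes had almost no reads in WT, so a ratio of counts describes them better than a fitted fold. Pdcd1lg2, which encodes the checkpoint ligand PD-L2, had 1 read in WT and 70 in KO over both libraries, a ratio of 127 after allowing for depth (95% counting interval 22.1 to 5095). Cd5l, a secreted scavenger receptor, had 1 and 61 reads (ratio 111, 19.2 to 4449), and Dmrtc1b, a DM-domain family gene on chromosome X with a close paralogue that may share reads, had 2 and 56 (ratio 50.9, 13.4 to 430.4). These intervals cover counting error only. Of the 544 higher genes, 29 had at most 3 reads over both WT libraries. The remaining strongest genes, Rph3a (4.64 ± 0.83), Liph (4.18 ± 0.83), Sp7 (3.88 ± 0.68), Cd72 (3.86 ± 0.76), Tll2 (3.57 ± 0.67) and Gbp8 (3.47 ± 0.69), all missed the threshold without the WT library of the first table, with an adjusted p of up to 0.109, while the other 14 of the 20 strongest passed with each library left out. Cd72 shares 41.6% and Cass4 21.2% of exon length with other genes.

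**Figure D2:**
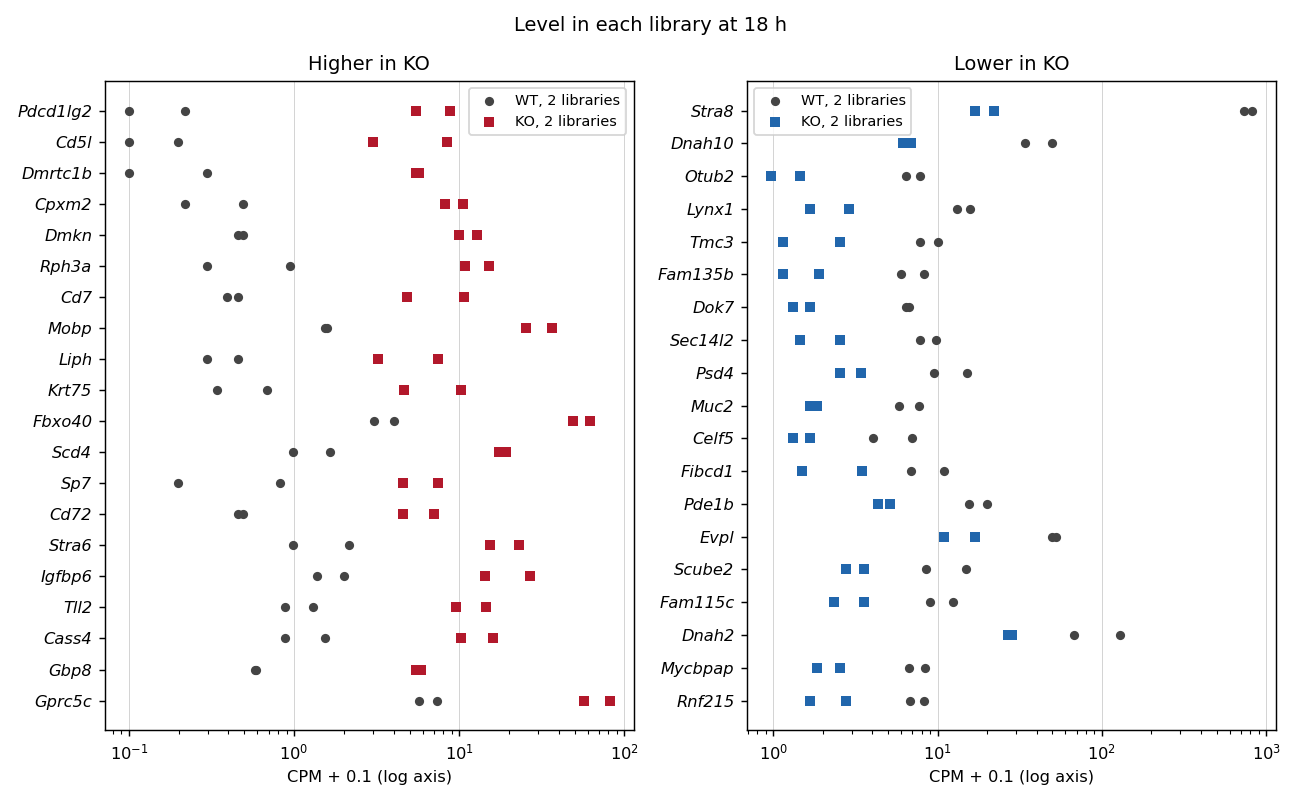
CPM plus 0.1 in each 18 h library (log axis) for the 20 strongest higher genes (left, KO in red squares) and those of the 20 strongest lower genes that are reported here (right, KO in blue squares), WT in dark circles. These genes were chosen among those whose genotypes do not overlap, and Stra8 is the gene with the widest gap on the right.

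The lower genes included axonemal dyneins and genes known from synapses and epithelia. Dnah10 (chromosome 5, 124725085 to 124834308), a heavy chain of axonemal dynein, stood at 49.8 and 34.1 CPM in WT and 6.79 and 6.05 CPM in KO (-2.70 ± 0.36, adjusted p = 6.81e-05). Lynx1, a membrane-anchored modulator of acetylcholine receptors, stood at 13.1 and 15.6 CPM in WT and 2.79 and 1.57 CPM in KO (-2.68 ± 0.45, adjusted p = 0.000883). Both genes were lower in each KO library than in each WT library, and these were the 2 of the 20 strongest lower genes that passed with each library left out. Evpl (envoplakin, a cornified envelope protein) stood at 52.7 and 49.9 CPM in WT and 10.8 and 16.8 CPM in KO (-1.90 ± 0.35, adjusted p = 0.00229), but reached an adjusted p of 0.0841 without the KO library of the first table. Dnah2, another axonemal dynein chain, stood at 129 and 67.9 CPM in WT and 28.4 and 26.7 CPM in KO (-1.84 ± 0.32, adjusted p = 0.00133, 0.0504 without the WT library of the first table).

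Other genes among the 20 strongest lower ones were Otub2, a deubiquitinase (-2.68 ± 0.56), Tmc3 (-2.36 ± 0.55), Fam135b (-2.32 ± 0.62), Dok7, an adaptor of the neuromuscular synapse (-2.20 ± 0.50), Sec14l2, a lipid-binding protein gene (-2.16 ± 0.46), Psd4 (-2.07 ± 0.51), the mucin Muc2 (-1.99 ± 0.48), Celf5 (-1.96 ± 0.54), Fibcd1 (-1.94 ± 0.50), the phosphodiesterase Pde1b (-1.91 ± 0.37), Scube2 (-1.90 ± 0.47), Fam115c (-1.86 ± 0.54), Mycbpap (-1.83 ± 0.44) and Rnf215 (-1.81 ± 0.44). These, Stra8, Evpl and Dnah2 were among the 18 of the 20 that lost the call without at least 1 library, 15 of them without the WT library of the first table, with an adjusted p of up to 0.436. Tmc3 shares 43.9% of its exon length with another gene. Lower genes with smaller differences but less spread, singled out after their values were seen, passed in each of these fits. Among them Als2cl stood at 68.0 and 71.0 CPM in WT and 21.6 and 25.8 CPM in KO (-1.56 ± 0.24), the calcium-dependent protease Capn5 was at -1.56 ± 0.24, and Fam78a and Scube1 had values of -1.54 ± 0.23 and -1.52 ± 0.26.

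Lower genes were long. Their median exon length was 5.89 kb, against 4.40 kb for the higher genes and 3.85 kb for all tested genes with a length. Of the tested genes in the shortest quartile of exon length 0.244% were lower and 1.78% higher, and in the longest quartile 1.88% and 3.31%. The median difference went from 0.13 in the shortest to -0.11 in the longest quartile. The part of length in the result was not tested.

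**Figure D3:**
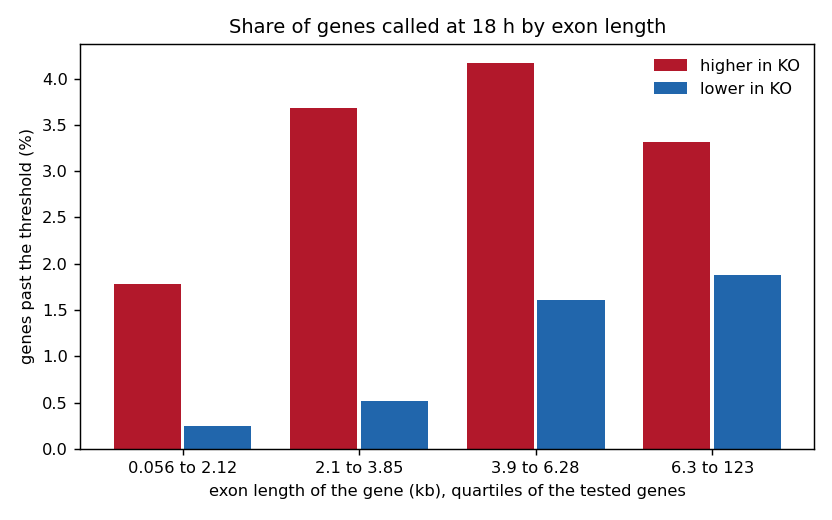
Bars give the share of tested genes (%) that passed as higher (red) or lower (blue) in KO, by quartiles of exon length in kb. The share of lower genes goes from 0.244% in the shortest quartile to 1.88% in the longest, and the share of higher genes peaks at 4.17% in the third quartile.

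Genes of undifferentiated spermatogonia were the germ cell group with the most members higher in KO. Of 30 tested, 9 rose against WT, where 3.11% of all tested genes did, and 0 fell, with a median of 0.70 against -0.03 over all genes, and the list was chosen with results of these data known. Lin28a, an RNA-binding protein of stem and progenitor cells, stood at 105 and 117 CPM in WT and 319 and 326 CPM in KO (1.53 ± 0.18, adjusted p = 1.91e-05). Egr4, a zinc finger transcription factor, stood at 17.9 and 21.1 CPM in WT and 75.8 and 71.7 CPM in KO (1.92 ± 0.27, adjusted p = 0.000144). Both KO libraries lay above both WT libraries for each. Nanos3, a translational repressor needed by germ cells, was higher by 2.04 ± 0.34, the uridine phosphorylase Upp1 by 1.83 ± 0.26 and Utf1, a chromatin factor of pluripotent cells, by 1.82 ± 0.29.

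Another 4 members passed less firmly: Pax7 (1.68 ± 0.36), Gfra1, the GDNF co-receptor (1.22 ± 0.28), Neurog3 (1.21 ± 0.32) and Rarg, the retinoic acid receptor of progenitors (0.93 ± 0.18). Each of these 4 lost the call without at least 1 library, with an adjusted p of up to 0.462, and 5 members passed without the WT library of the first table. Zbtb16 (PLZF) stood at 217 and 165 CPM in WT and 372 and 345 CPM in KO and missed the threshold (0.91 ± 0.26, adjusted p = 0.0507). Among those that did not pass were Ret (0.63 ± 0.36), Etv5 (0.34 ± 0.38), Id4 (0.96 ± 0.40), Bcl6b (0.13 ± 0.29) and Nanos2 (2.01 ± 0.77), the last at under 2 CPM in every library.

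Differentiation genes did not share a direction. Of 15 tested, 0 rose and 2 fell, where 1.04% of all tested genes fell, and the median was -0.28. The 2 were Stra8, the gene targeted, whose fall was built into the design, and Plk5 (-1.74 ± 0.49, adjusted p = 0.0434). Plk5 lost the call whichever library was left out. Kit, the receptor that marks differentiating spermatogonia, stood at 691 and 963 CPM in WT and 808 and 1407 CPM in KO. The genotypes overlapped and no difference was detected (0.42 ± 0.35, adjusted p = 0.669). Its transcriptional regulators Sohlh1 (0.40 ± 0.22) and Sohlh2 (-0.12 ± 0.19) did not pass either. Ccnd2, a D cyclin of differentiating cells, stood at 469 and 513 CPM in WT and 643 and 1048 CPM in KO (0.78 ± 0.23, adjusted p = 0.0599).

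Against 0 h, 11.9% of tested genes had changed in WT and 8.93% in KO. Kit had risen in both genotypes, by 4.25 ± 0.40 in WT and 5.09 ± 0.42 in KO. Cyp26a1, which degrades retinoic acid, had also risen in both, by 6.19 in WT (adjusted p = 9.45e-06) and 4.54 in KO (adjusted p = 0.000284). It stood at 10.3 and 31.5 CPM in WT and 11.5 and 25.8 CPM in KO at 18 h, and Rarb, a retinoic acid receptor, at 4.91 and 8.86 against 6.27 and 5.15 CPM. Neither pair of ranges was separate (-0.17 ± 0.50 and -0.26 ± 0.55). In the list of receptors, enzymes and carriers of retinoic acid, 2 of 23 tested members rose, Stra6 and Rarg, and 0 fell. Of all tested genes 3.11% rose, and the list median was 0.21. The Rarb exons overlap another gene over 38.4% of their length.

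Meiotic genes were present, and none was called between the genotypes. Of 41 tested genes of meiotic prophase 0 passed in either direction, with a median of -0.07, where 4.14% of all genes passed. Both KO libraries lay below both WT libraries in 14 of the 41 and above in 2. Of all tested genes 26.7% and 23% did so. Stag3, a meiotic cohesin subunit, stood at 505 and 499 CPM in WT and 395 and 492 CPM in KO (-0.18 ± 0.18). Rec8, the meiotic kleisin, was at 68.8 and 91.6 against 77.0 and 140 CPM (0.43 ± 0.32), and Dmc1, the strand exchange recombinase, at 39.2 and 42.0 against 27.2 and 30.7 CPM (-0.49 ± 0.25). Prdm9, which places meiotic breaks, was lower in both KO libraries, at 2.96 and 3.36 CPM against 7.95 and 7.18 CPM, and missed the threshold (-1.26 ± 0.47, adjusted p = 0.155). Sycp3 (0.14 ± 0.38), Ythdc2 (-0.19 ± 0.22) and Tex15 (-0.30 ± 0.27) did not pass.

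Cell cycle lists held single genes past the threshold, where 3.11% of all tested genes were higher and 1.04% lower. Of 45 replication genes the median was -0.15. Both KO libraries lay below both WT libraries in 19 and above in 6, where 26.7% and 23% of all tested genes did so. The 1 that rose was Chaf1b, the middle subunit of the histone chaperone CAF-1, from 29.5 and 32.0 CPM in WT to 111 and 123 CPM in KO (1.93 ± 0.23, adjusted p = 2.35e-05). None of 37 mitosis genes passed (median -0.12), with Top2a at -0.11 ± 0.20 and Cenpf at 0.00 ± 0.25. Of 21 cell cycle inhibitors, D cyclins and pocket proteins 1 rose, Cdkn1a (p21), at 2.55 and 2.99 CPM in WT and 10.4 and 9.41 CPM in KO (1.84 ± 0.35, adjusted p = 0.00229, 0.0742 without the WT library of the first table). Of 23 p53 and apoptosis genes the same gene alone rose.

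Glycolysis had 2 of 19 members higher, where 3.11% of all tested genes were, and 0 lower (median 0.55). Ldhb, a lactate dehydrogenase subunit, stood at 7.95 and 14.2 CPM in WT and 57.1 and 55.8 CPM in KO (2.35 ± 0.39, adjusted p = 0.00086), and Pfkfb3, which makes the activator of phosphofructokinase, at 14.1 and 10.2 against 35.0 and 38.8 CPM (1.59 ± 0.27). Both passed with each library left out. None of 37 nuclear genes of oxidative phosphorylation passed (median 0.15). The 13 mitochondrially encoded genes had a median of 0.92 with 0 passing, and mt-Co1 stood at 8726 and 20628 CPM in WT and 27309 and 24952 CPM in KO (0.83 ± 0.55). Of 44 ribosomal protein genes 0 passed, with a median of 0.30.

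Among chromatin and germline defence genes, 2 of 14 genes of DNA methylation and demethylation rose, in a list whose median was -0.09 and where 3.11% of all tested genes rose: Tet2, which oxidises methylcytosine (1.89 ± 0.37), and Dnmt3l, a cofactor of de novo methylation, at 4.42 and 2.51 CPM in WT and 22.6 and 14.6 CPM in KO (2.41 ± 0.48, adjusted p = 0.00358). The piRNA list had 2 of 25 higher, Dnmt3l again and Spocd1 (1.08 ± 0.26). These 3 genes lost the call without at least 1 library, with an adjusted p of up to 0.0588 for Tet2, 0.0776 for Dnmt3l and 0.396 for Spocd1. None of 19 genes of PRC1.6 and germline gene repression passed, with Mga at -0.05 ± 0.22. Of 30 autophagy and lysosome genes 1 rose, Gabarapl1 (0.86 ± 0.19), which lost the call without 3 of the 4 libraries and shares 28.3% of exon length with another gene, and Nr1d1, a repressor of the clock and of autophagy genes, was at 0.45 ± 0.32 (adjusted p = 0.589). Of 27 immediate early and stress genes 2 rose, the chaperone Hspa5 (0.96 ± 0.25) and Ier3 (2.00 ± 0.57), and neither passed in more than 1 of the fits that leave a library out.

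Hox genes had the highest median of the lists, 1.39 over 21 tested members. Of these 4 rose, where 3.11% of all tested genes did: Hoxb4 (1.84 ± 0.39), Hoxc4 (2.20 ± 0.51), Hoxb3 (2.17 ± 0.54) and Hoxb8 (2.35 ± 0.68). Levels were low. Hoxb4 stood at 2.45 and 5.39 CPM in WT and 14.3 and 13.7 CPM in KO, and the summed list at 23.9 and 31.1 against 61.7 and 84.0 CPM. In 12 of the 21 both KO libraries lay above both WT libraries and in 0 below, where 23% of all tested genes did so upward. The calls were fragile: 0 to 2 members passed with a library left out, with 0 without the first-table library of either genotype. Hox genes resemble each other and Hoxb3 shares 52.9% of its exon length, so single members are uncertain.

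**Figure D4:**
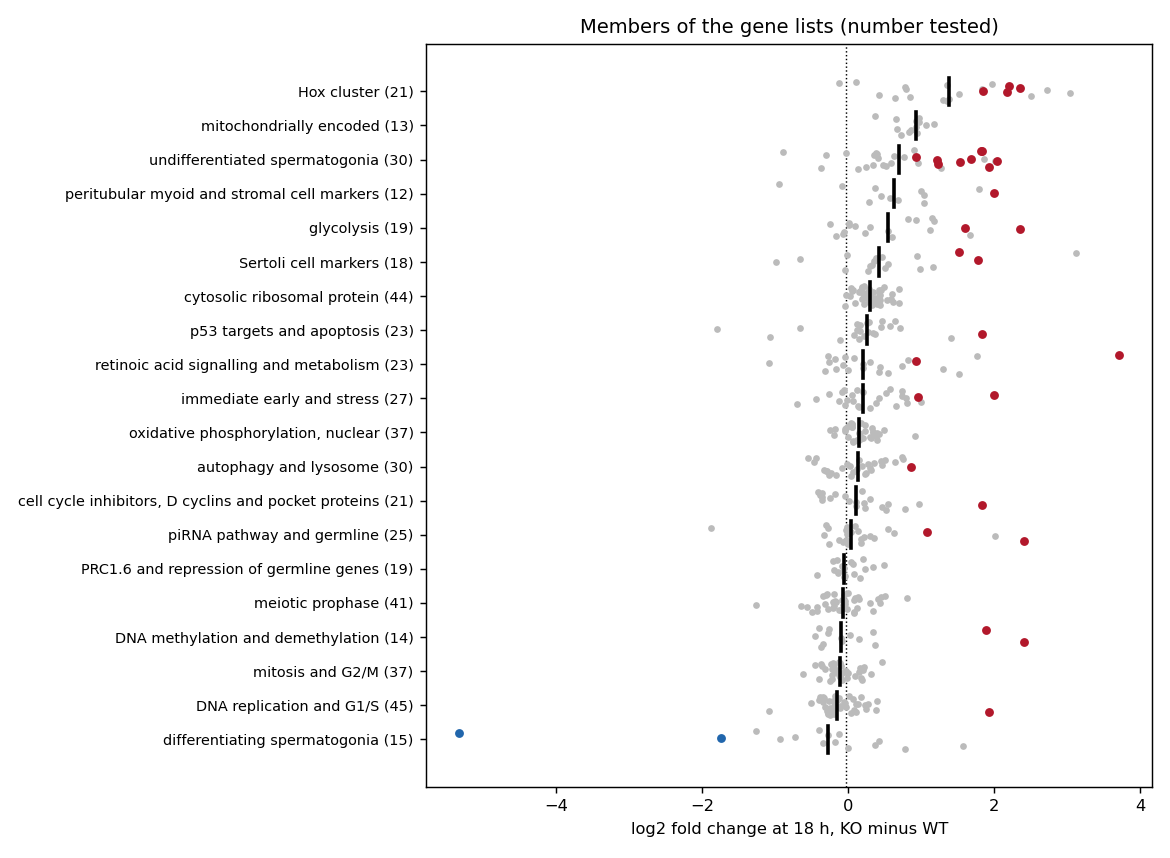
Each point is a tested member of a gene list, placed by its log2 fold change at 18 h (KO minus WT), with higher genes in red, lower genes in blue and the rest in grey; thick bars are list medians and the dotted line is the median of all tested genes. The Hox, mitochondrially encoded and undifferentiated spermatogonia lists have the highest medians, and Stra8 is the far point of the differentiating list.

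Interferon-inducible families, chosen after their values were seen, also held genes higher in KO. Of 7 tested guanylate-binding protein genes 5 rose and 0 fell, where 3.11% of all tested genes rose and 1.04% fell. Gbp3 stood at 4.02 and 1.80 CPM in WT and 24.6 and 19.9 CPM in KO (2.91 ± 0.37, adjusted p = 3.4e-05), and Gbp6 at 1.86 and 1.68 against 14.8 and 14.6 CPM (3.04 ± 0.46). Gbp3 and Gbp6 kept the call whichever library was left out. Gbp8 and Gbp9 lost the call without the WT library of either table, and Gbp4 without that of the first. Members of this family are near copies of each other and may share reads. Of 7 tested oligoadenylate synthetase genes 2 rose, Oasl2 (12.9 and 16.3 against 78.4 and 96.5 CPM, 2.59 ± 0.25) and Oas3 (3.34 ± 0.65, adjusted p up to 0.086 with a library left out). Among 11 axonemal dynein heavy chains 3 fell, Dnah10, Dnah2 and Dnah1 (-1.29 ± 0.28), while Dnah17 rose (2.51 ± 0.44), so the family did not move one way. Dnah1 passed in 1 of the 4 fits with a library left out (adjusted p up to 0.227), and without the WT library of the first table Dnah10 alone was lower.

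Somatic markers stood beside these changes. For comparison, 3.11% of all tested genes were higher in KO. Of 18 Sertoli cell markers 2 were higher in KO, Gjb2 (1.78 ± 0.45) and Wt1, at 7.26 and 4.55 CPM in WT and 14.5 and 19.7 CPM in KO (1.52 ± 0.41), with the list summing to 447 to 488 CPM in WT and 506 to 541 CPM in KO. In 9 of the 18 both KO libraries lay above both WT libraries, where 23% of all tested genes did so. The median was 0.42 against -0.03 over all genes. Tjp1 and Ctsl made up most of the sum, and the other 16 markers, set apart after their values were seen, summed to 53.1 and 55.1 CPM in WT and 92.1 and 82.7 CPM in KO. Amh and Sox9 stayed under 5 CPM in every library. Of 12 tested stromal markers 1 was higher, Des (1.99 ± 0.48), with sums of 77.6 and 116 CPM in WT and 172 and 150 CPM in KO. The stromal median was 0.63. In 5 of the 12 both KO libraries lay above both WT libraries and in 1 below. Of all tested genes 23% and 26.7% did so. Of 8 endothelial markers 1 was higher, Vwf (1.99 ± 0.52), with sums of 53.5 to 65.6 CPM in WT and 63.6 to 70.9 CPM in KO.

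These 4 marker genes lost the call without 3 or more of the 4 libraries. Macrophage and leukocyte markers summed to 5.39 to 5.50 CPM in WT and 5.60 to 7.49 CPM in KO, with C1qb and C1qc at 0 reads in all 4 libraries. Leydig markers summed to 6.87 to 11.8 CPM with Insl3 at 0, erythroid markers to 1.12 to 4.91 CPM, and spermatid markers to 5.15 to 6.94 CPM with Prm1, Prm2 and Tnp2 at 0. No tested member of these last 4 lists passed. The part of somatic cells in the higher genes was not tested.

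Before retinoic acid no single gene passed. At 0 h edgeR called 0 genes between KO and WT and DESeq2 0, with 1193 at an unadjusted p under 0.05 (6.81%), against 2702 (15.4%) at 18 h. Of the 544 genes higher at 18 h, 428 (78.7%) already had a positive difference at 0 h, with a median of 0.30, against 48.85% of all tested genes. Of the 182 lower genes 98 (53.85%) had a negative difference at 0 h, with a median of -0.04, against 51.15% of all tested genes. WT libraries of the same table varied together between 0 h and 18 h (correlation of deviations 0.509 across genes, and -0.05 in KO). The signs at 0 h and 18 h are thus not independent of each other. Stra8 was at -3.24 ± 1.13 at 0 h (adjusted p = 0.71). At 12 h 207 genes passed (1.18%), 190 higher (1.08%) and 17 lower (0.097%), and at 48 h 54 (0.308%), 51 higher (0.291%) and 3 lower (0.0171%). The 12 h and 18 h comparisons share no library, but WT libraries of the same table varied together (correlation of deviations 0.503 across genes between 12 h and 18 h, and 0.181 in KO), so they are not independent of each other. Of the higher genes, 159 passed at both, which is 29.2% of those at 18 h and 83.7% of those at 12 h, and of the lower genes 11, which is 6.04% and 64.7%. Of the 544 higher genes 542 had a positive difference at 12 h, of all tested genes 47.6%. With 48 h, 42 higher genes were shared, 7.72% of those at 18 h and 82.4% of those at 48 h.

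The difference at 18 h was set against that at other times by interaction tests. Against 0 h, 58 genes passed (0.331%), 47 in the upward direction (0.268%) and 11 downward (0.0628%), each of them also called at 18 h in that direction. Without 1 of the 18 h libraries the count was 12 to 29, lowest without the WT library of the first table, and it was 207 with the table as a block within genotype. Mycn had a difference of -0.02 at 0 h and 2.24 at 18 h (interaction 2.25 ± 0.27, adjusted p = 0.000332), and Fbxo40 0.31 and 4.0 (3.69 ± 0.46, adjusted p = 0.000387). Dnah10 had 0.25 and -2.70 (-2.95 ± 0.49, adjusted p = 0.00537). Against 12 h 0 genes passed in edgeR and 0 in DESeq2, with 198 at an unadjusted p under 0.05 (1.13%). No gene was thus shown to have a difference between KO and WT at 18 h unlike that at 12 h. Against 48 h 9 passed (0.0514%), all larger at 18 h, among them Fbxo40, Mobp, Ddr1, Dmkn and Mycn, and 0 to 9 passed without one 18 h library, with 0 without the WT library of the first table.

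Levels over time show where each difference lay. In WT, Fbxo40 went from 64.2 and 44.6 CPM before retinoic acid through 13.0 and 9.89 CPM at 12 h to 2.94 and 3.95 CPM at 18 h. In KO it went from 72.1 and 63.0 CPM to 61.8 and 48.4 CPM at 18 h. Its fall in WT was -3.98 (adjusted p = 8.77e-08), and in KO the change was -0.29 (adjusted p = 0.62). Mycn went from 87.6 and 79.3 CPM to 25.1 and 23.6 in WT (-1.78, adjusted p = 1.16e-06), and from 77.9 and 87.4 to 114 and 116 CPM in KO (0.48, adjusted p = 0.117). Lin28a went from 400 and 371 CPM to 105 and 117 in WT (-1.80) and from 428 and 465 to 319 and 326 CPM in KO (-0.47, adjusted p = 0.0998). Mobp, Egr4, Oasl2 and Gbp3 also fell in WT (-4.27, -2.59, -2.76 and -3.67), against -0.32, -0.99, -0.55 and -0.91 in KO. These comparisons share the 18 h libraries, and WT libraries of one table varied together over time, so the values are set side by side only. The interaction with 0 h passed for Mobp, Oasl2 and Gbp3 but not for Egr4.

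Other genes had different courses. At 12 h Stra6 stood at 23.5 and 10.7 CPM in WT and 33.1 and 58.8 CPM in KO. By 18 h the WT libraries held 0.883 and 2.03 CPM and the KO libraries 15.3 and 22.8 CPM. Chaf1b fell in WT from 57.5 and 54.2 CPM at 0 h to 29.5 and 32.0 (-0.86, adjusted p = 0.0134) and rose in KO from 67.6 and 71.3 to 111 and 123 CPM (0.75, adjusted p = 0.0365). Dnah10 rose in WT from 15.8 and 9.56 to 49.8 and 34.1 CPM (1.71, adjusted p = 0.00116) and fell in KO from 19.8 and 9.98 to 6.79 and 6.05 CPM (-1.24, adjusted p = 0.0325). Evpl rose in WT (1.51, adjusted p = 0.00452) from 17.6 and 18.4 CPM, with a change of -0.05 in KO. The interaction with 0 h passed for Chaf1b and Dnah10 but not for Evpl or Stra6. At 48 h one KO library held 61.9 CPM of Stra8 and the other 2.15, which touches the 48 h comparison.

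**Figure D5:**
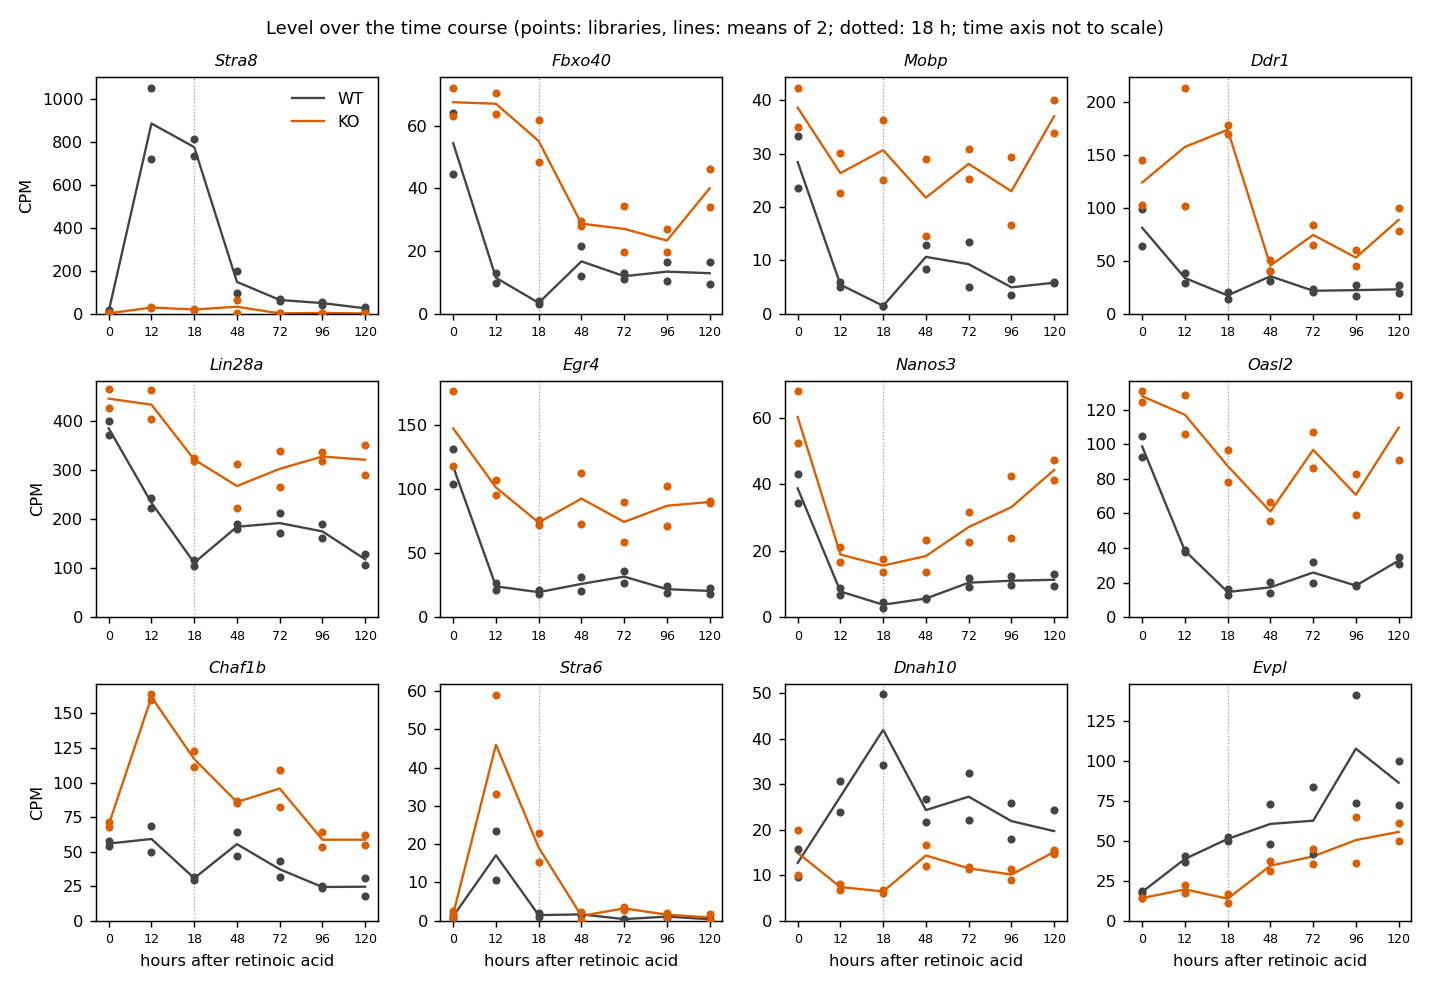
CPM of 12 genes against hours after retinoic acid (spacing not to scale), with points for the libraries, lines for the means of 2, WT in grey and KO in orange, and a dotted line at 18 h. Fbxo40, Mobp, Lin28a and Oasl2 drop in WT by 18 h and stay higher in KO, while Dnah10 and Evpl are higher in WT.

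Promoter sequences were set beside these calls, since STRA8 binds DNA. RefSeq promoters of GRCm38.p6 (250 bases before to 50 after a start) were matched by symbol to 11364 of the 17519 tested genes, 404 of the 544 higher and 142 of the 182 lower. The motif reported for STRA8 binding, CNCCTCAG, was searched on both strands together with the E-box CACGTG and the spaced direct repeat bound by retinoic acid receptors. None of the 3 contains another. CNCCTCAG was in at least one promoter of 9.41% of higher genes, 14.8% of lower genes and 10.9% of tested genes. Lower genes had more promoters each, and by promoter the shares were 7.45%, 10% and 9.05%, against 7.94% of all promoters in the table. CACGTG was in 10.4%, 8.45% and 11.6% of the same gene sets, and the receptor repeat in 0 promoters of tested genes and 3 of all 32851. No test was made of these shares.

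Promoters of 4 genes are shown, Stra8 and 3 picked from those that hold CNCCTCAG on either strand, which 7 of the 52 named genes searched did. They are printed 5′ to 3′ on the gene's strand, with motif matches in capitals (CNCCTCAG or its reverse complement CTGAGGNG, and CACGTG). Stra8 (chr6:34920698-34920997, plus strand) is the gene targeted, and holds no match. Stra6 (chr9:58128838-58129137, plus strand) and Dnmt3l (chr10:78049592-78049891, plus strand) were higher in KO, and Sec14l2 (chr11:4118680-4118979, minus strand) was lower.
Stra8: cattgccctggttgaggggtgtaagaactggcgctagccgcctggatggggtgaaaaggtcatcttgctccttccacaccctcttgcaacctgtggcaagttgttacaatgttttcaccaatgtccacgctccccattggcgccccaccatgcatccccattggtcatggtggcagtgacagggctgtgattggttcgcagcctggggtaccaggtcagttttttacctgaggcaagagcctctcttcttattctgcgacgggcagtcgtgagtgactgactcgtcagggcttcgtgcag
Stra6: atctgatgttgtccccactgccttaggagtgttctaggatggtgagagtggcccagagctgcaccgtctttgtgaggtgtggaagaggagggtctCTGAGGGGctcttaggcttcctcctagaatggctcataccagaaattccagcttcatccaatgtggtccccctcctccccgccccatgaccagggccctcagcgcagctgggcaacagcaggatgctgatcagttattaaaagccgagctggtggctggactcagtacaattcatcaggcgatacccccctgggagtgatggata
Dnmt3l: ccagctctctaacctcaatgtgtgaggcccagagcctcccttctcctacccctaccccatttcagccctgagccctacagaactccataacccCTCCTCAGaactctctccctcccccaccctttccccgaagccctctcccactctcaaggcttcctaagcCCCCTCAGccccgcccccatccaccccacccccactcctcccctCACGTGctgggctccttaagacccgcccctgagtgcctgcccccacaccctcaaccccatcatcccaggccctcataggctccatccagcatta
Sec14l2: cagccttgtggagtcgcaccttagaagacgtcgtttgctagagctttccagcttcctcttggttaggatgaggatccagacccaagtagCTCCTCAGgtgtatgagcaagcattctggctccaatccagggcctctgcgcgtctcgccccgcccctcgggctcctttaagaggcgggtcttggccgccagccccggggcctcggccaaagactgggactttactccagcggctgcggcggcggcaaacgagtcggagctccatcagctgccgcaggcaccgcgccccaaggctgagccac
The match in Stra6 begins 155 bases before the start. Those in Dnmt3l begin 157 and 88 bases before the start, with CACGTG at 44, and that in Sec14l2 at 161. These starts belong to the promoters shown. Stra6 and Dnmt3l have other promoters, which hold no match. A match is a description of letters and not of binding.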

How the data were processed

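RNA from sorted germ cells was sequenced on an Ion Proton, per the labels' protocols. The authors deposited whole-number read counts per gene in 2 tables, and 2 further tables that they named FPKM. Those hold CPM values (counts scaled to a common library total), as far as a match to the deposited counts shows. The submitters' processing notes name Bowtie, TopHat and Cufflinks and the build mm10, with no versions, and no source used here says whether counting used strand. The CPM tables served only as a check: 25 of their 28 columns equalled a count column within 0.001 CPM, and at 18 h their KO columns carried the opposite replicate number, so KO libraries are named by count table and the numbers were not taken to pair KO with WT samples. Of 43280 features, 27 whose names had become dates were left out, with 0.123% to 0.135% of counts at 18 h. Rows for reads outside genes were left out too. They were filled for WT libraries of one table only, and at 18 h held 29.2% of that column as no feature, 14.6% as not uniquely aligned and 0.751% as ambiguous.

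Counts were fitted in edgeR 4.0.16 (R 4.3.3) with TMM scaling and its low-count filter over all 28 libraries in 14 group means, which share 1 estimate of spread, and p-values were adjusted by Benjamini-Hochberg over 17519 genes. On counts simulated for this comparison, 33 of 100 genes changed by a log2 of 1 and 87 of 100 changed by 2 were recovered, with 4 false calls among 124. Other scalings, filters, DESeq2 1.42.0, a replicate block and leaving out each 18 h library were alternatives.

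Nothing in the labels says that replicates came from separate animals, so p-values measure only the spread between these samples. The named genes were Stra8, up to 20 higher and 20 lower genes with the largest difference among those past the threshold with at least 5 CPM in a group and separate libraries, then up to 4 members of each list past the threshold; a list with none past it could be named by its 2 most abundant members, and a fixed set of germ cell genes could be named whether or not they passed. The comparison and lists were chosen with earlier results of these data known. Coordinates and exon lengths come from GENCODE vM21 (GRCm38), matched by symbol for 16416 tested genes. Values of a few single genes are not reported here.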

Additional observations from a re-analysis of the deposited data

Results flagged for a closer look

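For each of these genes the gap between KO and WT at 18 h was tested against that at another time. The test passed with all libraries in the fit (interaction, edgeR, adjusted p under 0.05). Fewer genes passed against either time without the WT library of the first table, so not all of these gaps would pass there. Against 0 h, the gap was larger upward at 18 h by 6.14 on the log2 scale for Pdcd1lg2, 4.80 for Cpxm2, 4.57 for Cd7, 4.26 for Sp7, 3.95 for Mobp, 3.69 for Fbxo40, 3.63 for Igfbp6, 3.56 for Cass4 and 3.22 for Gprc5c. It was larger by 2.77 for Gbp3, 2.73 for Ddr1, 2.25 for Mycn, 2.21 for Oasl2, 2.13 for Lhfpl2, 2.03 for Rragd, 1.87 for Lamb1, 1.72 for Nab2, 1.61 for Chaf1b, 1.37 for Smad3 and 1.32 for Lin28a. The gap moved downward by -2.95 for Dnah10, -1.90 for Fam78a, -1.71 for Scube1, -1.67 for Als2cl and -1.64 for Capn5. Against 48 h, it was larger at 18 h by 4.64 for Dmkn, 3.39 for Mobp, 3.23 for Fbxo40, 2.98 for Ddr1 and 1.83 for Mycn. Pdcd1lg2 had 1 read over both WT libraries at 18 h, so its value depends on the prior count of the fit.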

How the results depend on the processing

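With 2 libraries a side, the count of 726 genes ranged from 176 to 356 with an 18 h library left out, where the lone library is assumed to vary like the other groups. It was 1180 with a replicate block within genotype, and 698 to 1055 in the other settings. The interaction with 0 h (58 genes) gave 214 with no filter on low counts, 143 in DESeq2, 116 with a replicate block, 207 with the block within genotype and 12 to 29 with a library left out. That with 12 h gave 1 with no filter. That with 48 h (9 genes) gave 48 with no filter, 18 in DESeq2, 19 with the block within genotype and 0 to 9 with a library left out. The cause of these moves was not tested, beyond fewer samples or more genes tested. The block on replicate number gave 876 genes at 18 h; KO and WT libraries of the same number at 18 h did not vary together (correlation of deviations -0.092, over a single pair of groups), so the number was not taken to pair KO with WT. WT libraries of the same table did vary together over all 21 pairs of times (0.258 to 0.517), while KO libraries did not throughout (-0.138 to 0.567). Over 174 named genes, no difference called in the main fit or in the alternative changed direction. Changes of sign in genes called in neither were not counted. Of 1513 values in settings other than leaving a library out, 1467 stayed on the same side of the threshold, 13 lost the call and 33 gained one. With a library left out, calls were lost more often. Scaling moved the median of all genes by at most 0.03 and the share of higher genes from 74.9% to 79.5%, and the block within genotype gave 68.1%. Genes under the depth limit of 3 counts, 0.30 to 0.66 CPM at 18 h, were not resolved.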
